A study of Mus musculus with 3 samples.

Results

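Potassium channel genes were described by where the homeodomain transcription factor MEIS2 left peaks in and around them in the embryonic mouse forebrain. They were taken as the protein-coding genes of mouse build mm10 whose symbol is Kcn followed by letters and a number, which gave 93 of 21887 protein-coding genes. Each gene was placed in 1 of 7 subfamilies (Kcna, Kcnb to Kcnd, Kcnh, Kcnj, Kcnk, Kcnq and the others) by its symbol alone. Potassium channels let potassium leave the cell, which sets the resting membrane potential and ends the action potential. Voltage-gated channels (Kcna to Kcnd, Kcnh and Kcnq) open on depolarization, inward rectifiers (Kcnj) and leak channels (Kcnk) hold the resting potential, and a further group is opened by calcium or sodium. In striatal projection neurons, inward rectifiers of the Kir2 type and A-type channels of the Kv4 type are known for keeping the cell silent between bouts of cortical input.

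Wild-type CD1 embryos at day 14.5 gave the tissue, lateral ganglionic eminence (LGE), where striatal projection neurons are born. The assay was CUT&Tag, where an antibody carries the Tn5 transposase to the protein it binds and DNA nearby is cut and tagged. The groups compared were 2 libraries made with a polyclonal anti-MEIS2 antibody and 1 library made with no primary antibody, each from 100000 cells of this mixed tissue. No group carried a mutation or a treatment, and the sources used here do not say how many embryos went into a library. A peak is a local excess of tags within 1 library, and its fold enrichment is the authors' caller's ratio of tags at the summit to tags expected there from the surroundings.

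The MEIS2 libraries kept 7618406 and 6559629 tags and the no-antibody library kept 6337375, and on the placed chromosomes they gave 78060, 82093 and 9869 peaks. A peak of replicate 1 was taken as reproducible where at least 1 bp of it lay under a replicate 2 peak and none under a peak of the no-antibody library. There were 47809 of these, with median fold enrichments of 7.26 in replicate 1 and 6.38 in replicate 2. Of 11 genes that mark the LGE, 11 had a reproducible peak in the gene or within 50 kb. So did 3 of 3 cortical genes, 2 of 2 genes of the medial ganglionic eminence and 3 of 4 genes of microglia and vessels, but only 10.9% of all protein-coding genes lack such a peak, so this measure cannot tell the cell types apart. Gene-end peaks were at 7 of the 11 LGE genes and 2 of the 3 cortical genes. They were at 1 of the 2 genes of the medial ganglionic eminence and 1 of the 4 of microglia and vessels. The share over all protein-coding genes was 52.4%, and lists this small cannot tell the cell types apart either. Peaks do not measure expression. No test between the groups was made, since the files list peaks and hold no counts over a common set of regions, and shares of genes are set beside the same share over all protein-coding genes.

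Most potassium channel genes carried a MEIS2 peak at a gene end, at a share near that of other genes. A reproducible peak with its summit within 1 kb of either end of the gene was present at 54 of 93 genes (58.1%, 95% Wilson interval 47.9 to 67.6, counting error only), against 52.4% of all protein-coding genes. In the single libraries, clear of no-antibody peaks, it was 66 genes in replicate 1 (71.0%, against 60.4% of all) and 59 in replicate 2 (63.4%, against 55.3% of all). The no-antibody library had a peak at the end of 0 of the 93 genes, where 0.270% of all genes had one. Of the 54 genes, 47 had 1 such peak and 7 had more. The 63 peaks had a median lower-of-replicates fold enrichment of 5.43, from 3.19 at Kcnj2 to 9.19 at Kcnb2, against a median of 6.19 for the 11150 gene-end peaks of all protein-coding genes. Their median width was 615 bp, against 591 bp. Fold enrichment was higher in replicate 1 at 37 of the 63 peaks and higher in replicate 2 at 26.

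The end that carried the peak was mostly the one where transcription starts. A RefSeq table of gene starts, which also gives the strand, covered 68 of the 93 genes and 17492 of all protein-coding genes. Among those 68, 33 had a peak at the end where the gene starts (48.5%, against 49.5% of all genes with a listed start) and 3 had one at the far end (4.41%, against 6.77%). The 3 were Kcnk4, Kcnk12 and Kcnk15, which encode leak channels or their relatives; Kcnk15 had no peak at its start end. Another protein-coding gene ended within 1 kb of the summit at 5 of the 63 peaks, so these cannot be given to the channel gene alone. They were at Kcnh3 (with Mcrs1), Kcnh6 (with Ace3), Kcnj14 (with Grwd1), Kcnk4 (with Catsperz) and Kcnab3 (with Trappc1).

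Taking gene ends alone missed a group of channel genes whose listed start lies inside the annotated gene. Of the 39 genes without a gene-end peak, 34 had a listed start, and 13 of these 34 had a reproducible peak within 1 kb of one (38.2%, against 12.3% of the corresponding 8357 genes overall). The 13 were Kcna2, Kcnc2, Kcnh1, Kcnj3, Kcnj4, Kcnk1, Kcnk2, Kcnk10, Kcnk13, Kcnq5, Kcnab1, Kcnip1 and Kcnip3. Kcnip1, whose product is an accessory subunit of Kv4 channels, had its peak at chr11:33843365-33843938, 150 kb inside the gene and 129 bp from a listed start, with fold enrichments of 8.99 and 7.47. Kcna2, a Kv1 channel of axons, had one at chr3:107101341-107102065 with its summit 15 bp from its listed start (7.70 and 6.23). At Kcnab1, a Kv beta subunit, the peak by a start was weak, with 4.70 and 3.19 and pileups of only 7 and 4 tags. Counting a gene end or any listed start, 67 of 93 genes had a peak (72.0%), against 57.1% of all. This wider count was chosen after the data were seen, and potassium channel genes are long: their median length was 32.9 kb, against 17.2 kb. Among genes over 100 kb, the wider count was 20 of 23 (87.0%), against 76.1% of all genes of that length, while gene ends alone gave 12 of 23 (52.2%), against 65.6%.

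**Figure D1:**
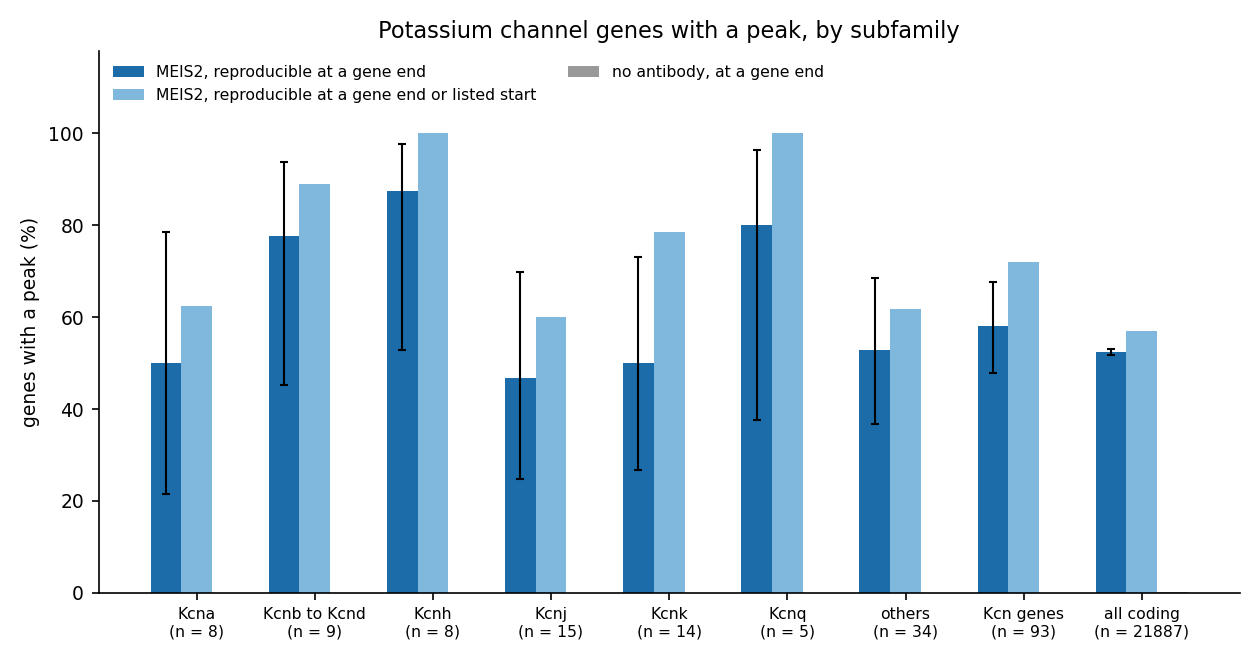
Percent of genes with a reproducible MEIS2 peak within 1 kb of a gene end (dark bars, with 95% Wilson intervals over genes), within 1 kb of a gene end or a listed start (light bars), and with a no-antibody peak at a gene end (grey), for the 7 subfamilies, the 93 Kcn genes and all protein-coding genes. Kcnh and Kcnq reach 87.5% and 80.0% at gene ends and 100% with listed starts, and no Kcn gene has a no-antibody peak at an end.

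The promoters under these peaks were rich in CpG dinucleotides, and the sequences below show it. The first 6 are from the 8 genes with a promoter (250 bases before to 50 after the start, RefSeq on GRCm38.p6, printed on the gene's strand) whose whole length lies under a gene-end peak, taken in order of fold enrichment. The last 2 are promoters of channel genes known from striatal neurons that had no gene-end peak and no start under a peak, the first 2 by name. Capitals mark each CG and each TGACAG, the core letters of the MEIS motif, searched on both strands as TGACAG and CTGTCA.
Kcna3: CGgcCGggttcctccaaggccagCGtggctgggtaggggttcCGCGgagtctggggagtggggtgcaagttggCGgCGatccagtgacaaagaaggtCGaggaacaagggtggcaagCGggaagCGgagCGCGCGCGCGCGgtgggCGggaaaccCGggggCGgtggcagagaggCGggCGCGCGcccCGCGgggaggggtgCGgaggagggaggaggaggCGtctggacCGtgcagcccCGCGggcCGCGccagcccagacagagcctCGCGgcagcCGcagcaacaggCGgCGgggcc
Kcns3: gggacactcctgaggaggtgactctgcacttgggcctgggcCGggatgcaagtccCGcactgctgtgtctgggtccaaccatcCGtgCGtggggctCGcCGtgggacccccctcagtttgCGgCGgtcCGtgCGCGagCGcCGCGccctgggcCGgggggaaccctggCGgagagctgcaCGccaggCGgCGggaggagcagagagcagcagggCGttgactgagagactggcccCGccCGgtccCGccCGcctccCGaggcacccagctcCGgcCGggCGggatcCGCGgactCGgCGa
Kcnma1: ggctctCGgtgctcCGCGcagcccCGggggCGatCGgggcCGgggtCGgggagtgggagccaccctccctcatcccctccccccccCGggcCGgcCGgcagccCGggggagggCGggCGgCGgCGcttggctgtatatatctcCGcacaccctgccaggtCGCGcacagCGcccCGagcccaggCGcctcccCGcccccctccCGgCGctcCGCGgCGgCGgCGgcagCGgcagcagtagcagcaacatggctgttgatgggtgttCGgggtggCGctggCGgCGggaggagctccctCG
Kcng3: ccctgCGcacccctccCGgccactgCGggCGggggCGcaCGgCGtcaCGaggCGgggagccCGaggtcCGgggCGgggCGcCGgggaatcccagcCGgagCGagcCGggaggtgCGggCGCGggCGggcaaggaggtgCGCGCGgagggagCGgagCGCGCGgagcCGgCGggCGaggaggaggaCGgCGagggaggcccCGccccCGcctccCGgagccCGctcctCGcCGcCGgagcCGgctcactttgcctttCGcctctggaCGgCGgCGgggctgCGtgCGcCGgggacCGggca
Kcnd2: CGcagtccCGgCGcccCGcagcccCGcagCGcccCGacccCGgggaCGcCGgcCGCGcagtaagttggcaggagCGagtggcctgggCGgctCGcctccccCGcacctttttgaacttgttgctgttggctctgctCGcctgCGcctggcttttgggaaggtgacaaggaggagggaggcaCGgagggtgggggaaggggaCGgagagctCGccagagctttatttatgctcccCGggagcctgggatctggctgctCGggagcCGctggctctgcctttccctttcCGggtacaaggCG
Kcnh7: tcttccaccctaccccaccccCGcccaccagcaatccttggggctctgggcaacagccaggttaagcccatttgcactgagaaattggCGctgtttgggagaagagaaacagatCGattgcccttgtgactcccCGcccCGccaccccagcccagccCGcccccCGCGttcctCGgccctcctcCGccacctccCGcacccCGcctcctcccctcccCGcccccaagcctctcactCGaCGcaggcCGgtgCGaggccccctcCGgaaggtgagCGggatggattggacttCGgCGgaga
Kcnab1: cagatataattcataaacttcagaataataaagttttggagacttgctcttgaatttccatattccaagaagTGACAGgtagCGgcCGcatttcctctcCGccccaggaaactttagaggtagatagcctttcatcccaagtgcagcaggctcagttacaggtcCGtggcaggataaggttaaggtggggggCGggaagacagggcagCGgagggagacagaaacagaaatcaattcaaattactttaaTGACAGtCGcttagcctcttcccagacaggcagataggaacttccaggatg
Kcnj9: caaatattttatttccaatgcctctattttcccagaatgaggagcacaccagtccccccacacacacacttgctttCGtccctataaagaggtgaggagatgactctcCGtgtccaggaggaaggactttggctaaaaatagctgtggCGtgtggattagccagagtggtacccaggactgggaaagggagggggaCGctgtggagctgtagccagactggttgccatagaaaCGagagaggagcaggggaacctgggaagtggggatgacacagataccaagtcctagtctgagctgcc

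Kcna3 (chr3:107035912-107036211, plus strand) encodes a Kv1 channel; its 300 bases held 37 CpG, and the peak over them had fold enrichments of 9.44 and 8.91. Kcns3 (chr12:11150324-11150623, minus strand), a silent subunit that modifies Kv2 channels, held 32 CpG under a peak of 8.52 and 9.71. Kcnma1 (chr14:24004156-24004455, minus strand), the large-conductance calcium-activated channel, held 36 under a peak of 6.98 and 6.70. Kcng3 (chr17:83631846-83632145, minus strand), another silent subunit, held 49, the most of the 8. Kcnd2 (chr6:21215096-21215395, plus strand), the Kv4.2 channel, held 26, and Kcnh7 (chr2:63184238-63184537, minus strand), an ERG-type channel, held 21. Kcnab1 (chr3:64948962-64949261, plus strand) held 7 and Kcnj9 (chr1:172329273-172329572, minus strand), a G-protein-gated inward rectifier, held 5. None of the 6 sequences under a peak held TGACAG on either strand, while the Kcnab1 sequence held it at 2 places and the Kcnj9 sequence did not.

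Over all 93 listed starts of the 68 genes, 35 lay under a reproducible peak (37.6%, against 41.1% of the 21263 listed starts of protein-coding genes). The CpG observed/expected ratio had a median of 0.681 at the 35 starts under a peak and 0.272 at the other 58. The same medians over all protein-coding starts were 0.823 and 0.277. With a ratio of at least 0.6, 22 of 26 Kcn starts lay under a peak (84.6%, against 74.2% of all such starts), and below 0.6 it was 13 of 67 (19.4%, against 10.9%). The starts under a peak with the lowest ratios were those of Kcnn4, at 0.226, Kcne1l, at 0.330, and Kcnj3, at 0.408. The letters TGACAG stood in 6 of 35 Kcn sequences under a peak (17.1%) and in 13 of 58 not under one (22.4%), against 14.5% and 21.6% over all starts and 18.7% of all 21263 sequences of this length. TGATTGAC, a longer motif of MEIS with a PBX partner, searched on both strands, stood in 0 of the 93 and in 0.785% of all. CpG content moved with the presence of a peak, and its part in the result was not tested.

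**Figure D2:**
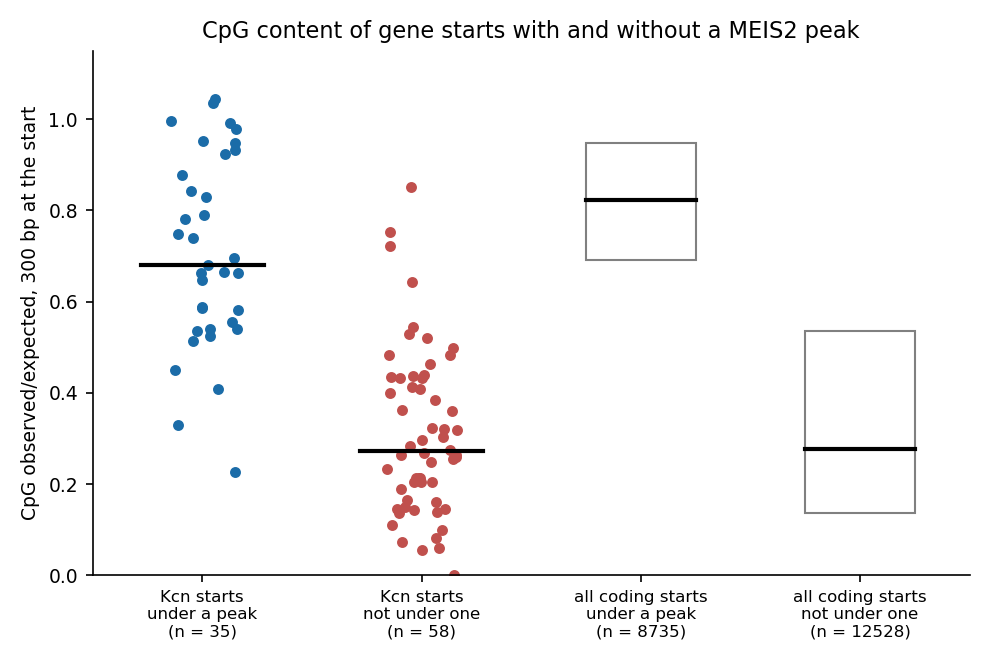
CpG observed/expected ratio in the 300 bases at each listed start. Points are the Kcn starts under a reproducible MEIS2 peak (n = 35) and not under one (n = 58), boxes are the middle 50% of all protein-coding starts in the same classes, and black lines are medians; the Kcn medians are 0.681 and 0.272.

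Distal peaks, those whose summit was over 1 kb away from any gene end, lay around 81 of the 93 genes (87.1%, against 80.8% of all), counted in the gene body and 50 kb on either side. They were 294 different peaks, 141 inside a channel gene and 153 only outside. Per 100 kb of this window the mean was 1.89 ± 0.20 (SE over the 93 genes) and the median 1.40, against a mean of 1.67 and a median of 1.31 over all protein-coding genes. With a replicate left out it was over 1.5 times as high: in replicate 1 alone, clear of no-antibody peaks, it was 3.87 (all genes 3.02), and in replicate 2 alone 3.14 (all genes 2.69). The higher mean did not hold for the longest genes. With reproducible peaks it was 2.31 for channel genes under 10 kb (all genes of that length 1.73) and 2.12 at 10 to 100 kb (1.71). Over 100 kb it was 1.00, below the 1.28 of all genes of that length. The median lower-of-replicates fold enrichment of the 294 peaks was 5.15, against 5.88 for the 34152 distal peaks of the genome, and 16 of the 294 lay within 1 kb of a listed start of the channel gene. Per 100 kb of gene body, pooled over genes, channel genes had 1.32 distal peaks, against 1.40 for all protein-coding genes. In the 50 kb on either side the mean was 1.70, against 1.65.

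The densest windows belonged to Kcnk7 (8.69 distal peaks per 100 kb), Kcnn4 (8.67), Kcnj14 (8.31) and Kcnh2 (6.81), and they differed in where the peaks lay. Around Kcnk7, a leak channel relative, 9 of 9 peaks lay outside the gene, in a window with 7 other protein-coding genes. Around Kcnn4, the intermediate-conductance calcium-activated channel, 3 of 10 lay inside, with 4 other protein-coding genes near it. At Kcnh2, the ERG channel of heart and brain, 5 of 9 lay inside the gene. A dense window was not always one of strong peaks. The highest lower-of-replicates fold of a distal peak was 4.81 around Kcnk7 and 5.10 around Kcnj14, both below the median of 5.15 for the family. It was 8.01 around Kcnn4 and 11.7 around Kcnh2. Kcnj9 and Kcnj10 share 3 distal peaks and Kcnip1 and Kcnmb1 share 2, and no other pair shared any.

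**Figure D3:**
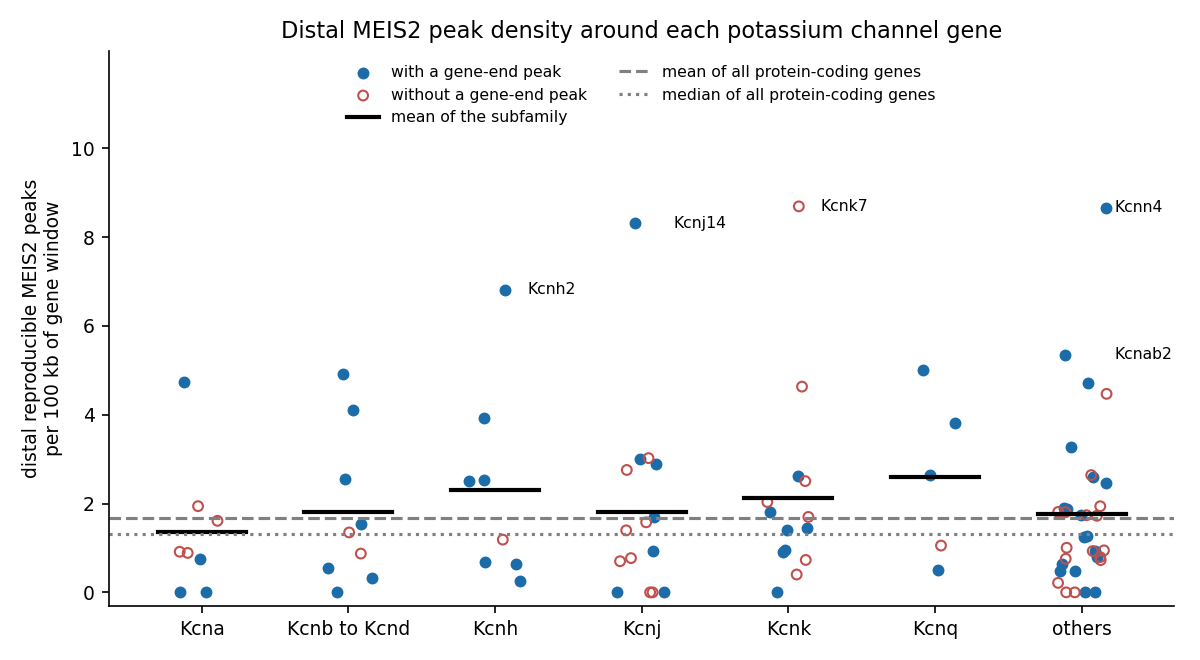
Distal reproducible MEIS2 peaks per 100 kb of gene window for each of the 93 genes, filled where the gene also has a gene-end peak and open where it has none. Black bars are subfamily means, from 1.36 for Kcna to 2.60 for Kcnq (an order of subfamilies that changes with the settings), and the grey lines are the mean (1.67) and median (1.31) of all protein-coding genes.

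The distal peaks of highest fold enrichment stood inside or beside channel genes of very different length. The first, inside Kcnh7 at chr2:62826602-62827088, had fold enrichments of 22.4 and 24.5 with pileups of 78 and 79 tags, and ranked 48 among the 47809 reproducible peaks by the lower of the 2 folds. It lay 133 kb from the nearer end of the gene, whose gene-end peak had 8.23 and 5.74. Kcnab1 had a pair of strong peaks around its lower-coordinate end, at chr3:64960710-64961046 inside the gene (23.5 and 19.8) and at chr3:64922842-64923211 outside it (20.7 and 18.5). Kcnj3, the GIRK1 subunit, held one at chr2:55492238-55492745 (19.6 and 20.2). The others of the first 10 were a peak 40.6 kb outside Kcnmb2 (18.4 and 18.3), a pair on either side of Kcnj6, the GIRK2 subunit (18.1 and 17.3, and 14.7 and 14.8), and a peak outside each of Kcnk5 (15.6 and 15.9), Kcna7 (15.5 and 17.3) and Kcnh8 (16.9 and 15.0). All 10 were at least 14.7 in both replicates, above the highest gene-end peak of the family. Among the 63 gene-end and the more numerous 294 distal peaks, the strongest were thus distal, although the distal median was lower, at 5.15 against 5.43. The distal median of the genome, 5.88, was likewise below the 6.19 of gene-end peaks of all protein-coding genes. Peaks shared with the no-antibody library, and those at the ends of neighbouring genes alone, are in neither class.

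**Figure D4:**
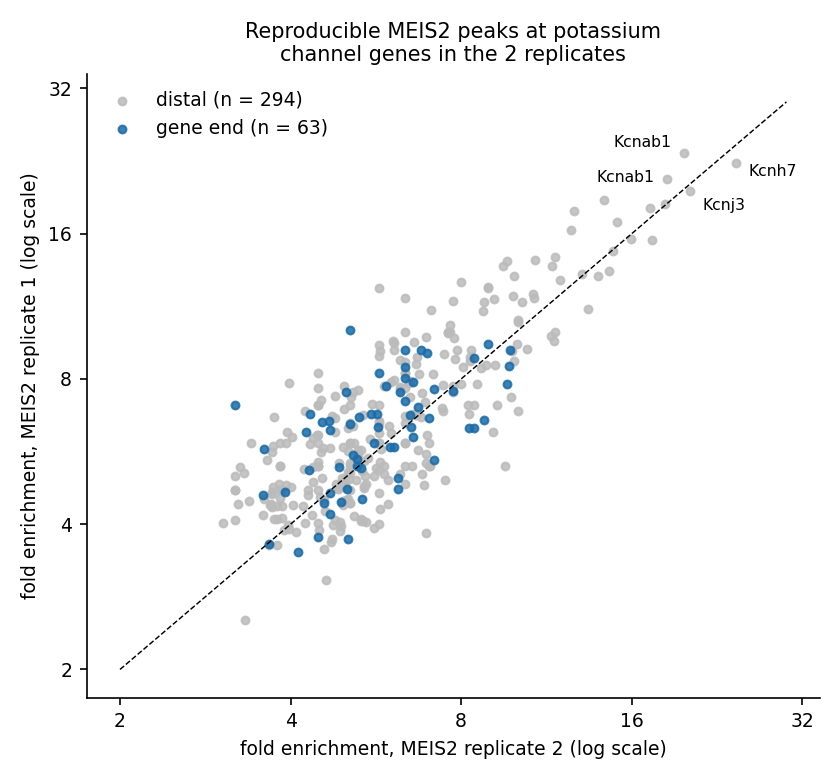
Fold enrichment of each reproducible peak in MEIS2 replicate 1 (vertical) and replicate 2 (horizontal), on log scales, for 63 gene-end and 294 distal peaks at Kcn genes. The dashed line marks equal values, and the peaks of highest fold, at Kcnh7, Kcnab1 and Kcnj3, are distal.

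Among the voltage-gated subfamilies, Kcna had gene-end peaks at 4 of 8 genes (50.0%), Kcnb to Kcnd at 7 of 9 (77.8%), Kcnh at 7 of 8 (87.5%) and Kcnq at 4 of 5 (80.0%), each beside the 52.4% of all genes. The Wilson intervals ran from 21.5 to 78.5 for Kcna, from 45.3 to 93.7 for Kcnb to Kcnd, from 52.9 to 97.8 for Kcnh and from 37.6 to 96.4 for Kcnq; they overlap one another, and the subfamilies were not tested against each other. Median gene lengths were 94.1 kb for Kcnb to Kcnd, 156 kb for Kcnh and 300 kb for Kcnq, and lower for Kcna. Of all genes, 38.4% under 10 kb, 59.2% at 10 to 100 kb and 65.6% over 100 kb had a gene-end peak. The part of gene length in the subfamily shares was not tested. Mean distal densities were 1.36 for Kcna, 1.80 for Kcnb to Kcnd, 2.32 for Kcnh and 2.60 for Kcnq, against 1.67 for all genes. Without replicate 1 they were 2.03, 3.11, 4.13 and 3.16 in the same order (all genes 2.69), and without replicate 2 they were 3.07, 4.48, 4.49 and 4.95 (all genes 3.02), so Kcnq was below Kcnh in replicate 2 alone. Kcnh was also above Kcnq in a window of 100 kb, at 2.42 against 2.27. The other subfamilies moved likewise with a replicate left out, Kcnj to 2.89 and 3.38, Kcnk to 3.93 and 4.09 and the others to 2.95 and 3.73, without replicate 1 and without replicate 2.

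The Kcna genes encode Kv1 channels, which open near the resting potential. Kcna3 had the strongest gene-end peak of the group, already given, and no distal peak. Kcna4, an A-type Kv1 channel, had one at chr2:107290380-107290716 (9.20 and 6.38) and also no distal peak. Kcna6 (6.67 and 5.29) and Kcna7 (5.47 and 5.23) completed the 4. Kcna1, the Kv1.1 channel, had a peak whose summit lay 1050 bp from its end (4.89 and 4.39), just outside the limit. Kcna7, best known from muscle, had 5 distal peaks, 5 of them outside the gene, in a window with 8 other protein-coding genes.

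Kv2, Kv3 and Kv4 channels, of the genes Kcnb, Kcnc and Kcnd, carry delayed-rectifier, fast-deactivating and A-type currents. Kcnb2 had the highest lower-of-replicates fold enrichment at a gene end in the whole family, at chr1:15286408-15287269, with 9.19 and 9.77. Kcnd3, the Kv4.3 channel, followed at chr3:105451762-105453062 (7.82 and 9.63), under a peak 1301 bp wide that also holds an end of the antisense gene Kcnd3os, and it had 0 distal peaks over 222 kb of gene. Kcnd2 had 6.36 and 6.51, with 2 distal peaks inside its 514 kb. Kcnc1, the Kv3.1 channel of fast-spiking neurons, had the most distal peaks of this group, 7, and a gene-end peak of 4.50 and 5.35. Kcnc2 and Kcnd1 had no reproducible gene-end peak, although each replicate alone had a peak there.

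Kcnh genes encode the EAG, ERG and ELK channels. Of the 8, only Kcnh1 lacked a gene-end peak, and its peak at chr1:192190619-192191280 (6.78 and 6.57) lay 1705 bp from the end and 72 bp from its listed start. Kcnh3, an ELK channel of the forebrain, had a peak at each end, at chr15:99224355-99225050 (6.34 and 8.41) and at the end it shares with Mcrs1 (4.59 and 3.57). Kcnh8 had 7.19 and 6.38, Kcnh6 7.52 and 6.25, and Kcnh5 6.75 and 5.68. Kcnh2 had 2 peaks at its start end, with 4.73 and 6.18 for the stronger, and Kcnh4, known from the striatum, had 6.22 and 4.27. Values within the subfamily were thus close, from 4.27 to 6.38 for the lower of the replicates at the best peak of each gene.

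Kcnq genes encode Kv7 channels; Kcnq3 and Kcnq5 contribute to the M current, which damps repetitive firing, and Kcnq1 acts mostly in heart and inner ear. Kcnq3 had 9.07 and 6.97 at its end and 2 distal peaks, 1 inside its 300 kb of gene and 1 outside. Kcnq5 had a peak of 7.81 and 8.54 at chr1:21961017-21962288 whose summit lay 1048 bp from the gene end, the closest outside the 1 kb limit, and 340 bp from a listed start. Just inside the limit were the peak of Kcnn4, at 947 bp (4.63 and 4.69), and 1 of Kcng3, at 936 bp (4.44 and 4.91). Kcng3 also had a stronger peak 37 bp from its end (6.56 and 8.77), so its count did not rest on the limit. Kcnq1 had 7.88 and 6.58 at its end and 16 distal peaks, the most of the 93 genes, 12 of them inside the gene; the strongest was at chr7:143288666-143288990 (12.3 and 8.93). In its window the MEIS2 libraries had 40 and 25 peaks and the no-antibody library had none, so replicate 1 listed more peaks there than replicate 2. The noncoding gene Kcnq1ot1 lies within Kcnq1, and the lists do not say which of the 2 a peak belongs to.

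**Figure D5:**
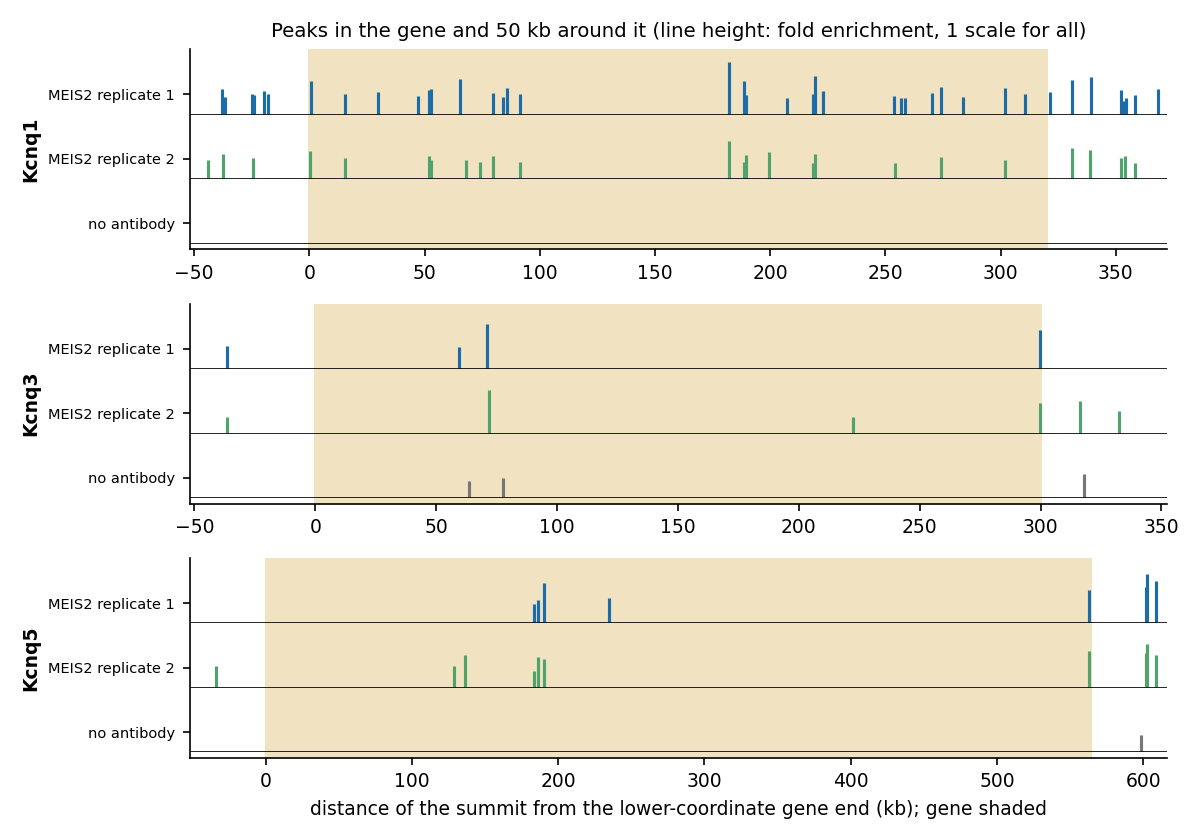
Peaks of MEIS2 replicate 1, MEIS2 replicate 2 and the no-antibody library in Kcnq1, Kcnq3 and Kcnq5 (shaded) and 50 kb on either side, by distance of the summit from the lower-coordinate end; line height is fold enrichment on 1 scale. Kcnq1 holds 40 and 25 MEIS2 peaks and no no-antibody peak, and Kcnq3 holds 4 and 6 MEIS2 peaks and 3 no-antibody peaks.

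Inward rectifiers had gene-end peaks at 7 of 15 genes (46.7%, interval 24.8 to 69.9, against 52.4% of all), with a mean distal density of 1.81. Kcnj10, the Kir4.1 channel of glia, had the strongest gene-end peak at chr1:172341084-172341492 (8.47 and 6.38). Kcnj6 followed with 7.74 and 5.89, then Kcnj14 with 5.78 and 6.10 at an end it shares with Grwd1. The KATP pore genes Kcnj8 (6.45 and 5.10) and Kcnj11 (6.28 and 4.70) both had one. Of the Kir2 genes of spiny neurons, Kcnj2 had 7.06 and only 3.19, with pileups of 11 and 4 tags, and Kcnj12 had 5.28 and 5.24. Kcnj4 had no gene-end peak but a peak at its listed start (4.84 and 5.44) and 4 distal peaks in all. Kcnj13 and Kcnj16 had neither a gene-end nor a distal peak. Kcne3 and Kcnv1 were the only others of the 93 (4 genes, 4.30%, against 10.9% of all). By gene length, the share with neither was 5% of channel genes under 10 kb (18.2% of all genes of that length), 6% at 10 to 100 kb (7.87%) and 0% over 100 kb (1.56%).

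Leak channels had gene-end peaks at 7 of 14 genes (50.0%, interval 26.8 to 73.2, against 52.4% of all), and at 11 of 14 (78.6%, against 57.1%) once listed starts were counted. Their mean distal density was 2.13, against 1.67 for all genes. Kcnk6 (6.64 and 7.01) and Kcnk5 (8.04 and 6.36) had the strongest, and Kcnk12 had 3 peaks, with 5.89 and 5.62 for the strongest. Kcnk3 (6.52 and 4.55) and Kcnk9 (5.17 and 4.31), the TASK channels, had weaker ones. Kcnk2, the mechanosensitive TREK-1 channel, had no peak at either end of its annotated gene and 6 distal peaks, with a best lower fold of 10.7, and a pair of its listed starts lay under a peak with a lower fold of 8.53. Kcnk10, the related TREK-2 channel, had its peak by a listed start at chr12:98574491-98575198 (8.56 and 8.84), above every gene-end peak of the subfamily in the lower of the replicates.

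The remaining 34 genes, of calcium- and sodium-activated channels, silent subunits and accessory subunits, had gene-end peaks in 18 cases (52.9%, interval 36.7 to 68.5, against 52.4% of all) and a mean distal density of 1.76. Kcns3 (8.52 and 9.71) and Kcnn2, the SK2 channel (8.86 and 8.41), led, followed by Kcnmb4, the neuronal BK beta subunit, with 3 peaks and 7.63 and 7.16 at the strongest. Kcnn2 had 9 distal peaks, 9 of them inside the gene. Silent subunits of the Kcnf, Kcng and Kcns genes had gene-end peaks at 1 of 1, 3 of 4 and 2 of 3 genes, and those of Kcnv at 0 of 2. Among accessory subunits, the Kv beta genes Kcnab had 2 of 3, the KChIP genes Kcnip 2 of 4, the Kcne genes 2 of 5 and the BK beta genes Kcnmb 1 of 4; classes this small give no comparison with the 52.4% of all genes. Kcnip4 had 9.19 and 6.81 at its end and 6 distal peaks, all inside its 1136 kb, and Kcnip2 had 4.73 and 5.04. Kcnab2 and Kcnn4 had 10 distal peaks each, the most of this group. The sodium-activated channel Kcnt1 had 7.51 and 5.01 at its end, and its relative Kcnt2 had no gene-end peak and 1 distal peak.

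Of 29 channel genes known from striatal neurons, 18 had a gene-end peak (62.1%, against 52.4% of all) and 26 a peak at a gene end or listed start (89.7%, against 57.1%). They are long, with a median of 186 kb. Of all genes over 100 kb, 65.6% had a gene-end peak and 76.1% had the wider kind. The 3 without were Kcna1, Kcnj9 and Kcnt2. Their mean distal density was 1.38 per 100 kb, against 1.67 for all genes and 1.28 for all genes over 100 kb.

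The lists of other channel families were taken by symbol, and those of calcium and sodium channels hold accessory subunits too. Calcium channel genes had gene-end peaks at 17 of 26 (65.4%), led by Cacnb4 with a lower fold of 8.95. HCN pacemaker genes had them at 4 of 4 and sodium channel genes at 6 of 14 (42.9%). The share over all protein-coding genes was 52.4%. Calcium and sodium channel genes are long, with medians of 104 and 103 kb. Of all genes over 100 kb, 65.6% had a gene-end peak. Scn1a, Scn2a and Scn3a, sodium channels of brain neurons, were among those without a gene-end peak. Scn8a had one, with a lower fold of 5.25, and 11 distal peaks. Of the pore-forming Cacna1 genes, Cacna1a, Cacna1b, Cacna1g and Cacna1i had one. Cacna1c, Cacna1d, Cacna1e, Cacna1f, Cacna1h and Cacna1s had none. Mean distal densities were 1.97, 2.43 and 1.76 per 100 kb for calcium, HCN and sodium channels, against 1.67 for all genes. The families are small and were not tested.

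No-antibody peaks near the channel genes lay away from their ends, and only 0.270% of all genes had one at an end. MEIS2 replicate 1 had a peak in the window of 92 of the 93 genes and replicate 2 of 92, against 21056 and 21278 of all 21887 protein-coding genes. The no-antibody library had a peak in the window of 32 (34.4%, against 26.6% of all genes). The longest genes held most of these: 18 of the 23 over 100 kb had one (78.3%, against 53.2% of all genes of that length). Of the 61 different no-antibody peaks, 27 had a partner in MEIS2 replicate 1 and 36 had one in replicate 2, and such MEIS2 peaks are left out above. The highest lay inside Kcnh1 at chr1:192453889-192454285, with 17.7 and 24.0 in the MEIS2 libraries and 9.36 without antibody. The next were outside Kcnu1 (19.0 and 17.4 for MEIS2, 8.21 without antibody) and outside Kcnj5 (13.6 and 16.0, against 7.71). A peak outside Kcnt2 (7.67) had no MEIS2 partner, and one outside Kcnh6 (6.91) had a partner in replicate 1 alone, at 3.06.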

How the data were processed

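CUT&Tag was run on E14.5 LGE of CD1 embryos, with 2 MEIS2 libraries and 1 library without primary antibody, grouped by the antibody label. Per the file headers, the authors ran MACS 2.2.7.1 separately for every library, without a control, at a q cutoff of 0.05 and with 1 tag kept per position. Bowtie2 2.3.4, Picard, Trimmomatic, build mm10 and another MACS2 version, 2.1.4, stand in the submitters' processing notes. The deposited pileup, a signal, counts tags stacked at the summit and is unscaled. Fold enrichment, as deposited, is a ratio within 1 library. The deposited −log10 q-value was used for a stricter list, and the −log10 p-value was not used. The caller kept 6337375 to 7618406 tags a library, after discarding a redundant share of 0.90 to 0.92, and intervals cover counting error only.

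Genes, ends and listed starts came from RefSeq tables of GRCm38.p6, matched by gene ID. Gene-end peaks had summits within 1 kb of either end. Distal peaks were more than 1 kb from the ends of all 49943 placed genes. Where several replicate 2 peaks overlapped, the highest fold was taken. The 4 noncoding genes with Kcn symbols were left out, and values of a few genes are not reported here. Python 3.11.15, pandas 2.3.3 and scipy 1.17.1 were used, and the overlap and counting code was tested on simulated peaks. No genome sequence was used. The members and lists were chosen with earlier results of these data known. Text names, in each subfamily, at most 3 genes by highest gene-end fold, 2 by number of distal peaks and 2 without either kind, the striatal channel genes, the 10 strongest distal peaks and the 5 strongest no-antibody peaks; genes named for lying near a limit, at an internal start or within a small class were chosen after their values were seen. Alternatives were another overlap, q, distance, window, replicate, base list or control rule, the start end alone, and, added after seeing the data, listed starts.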

Additional observations from a re-analysis of the deposited data

How the results depend on the processing

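No paired analysis was possible because the control is 1 library and no test was made. The count of 54 channel genes with a gene-end peak ran from 40 to 67 over the other settings, except for the start end alone, which gave 33 of 68 genes with a listed start. With 50% reciprocal overlap 43 of the 54 kept their peak, with −log10 q of at least 5 or a distance of 500 bp 40 did. At 500 bp the channel share was 43.0%, against 43.2% of all genes, and at 2.5 kb 71.0%, against 60.7%. Kcnn4 was the only gene of the 54 without a peak when replicate 1 was left out. The mean distal density of 1.89 was 1.16 with −log10 q of at least 5 (all genes 1.02) and 3.14 to 3.87 with a replicate left out. Subfamilies with a gene-end share above all protein-coding genes numbered 4 of 7, with 3 to 6 over the other settings and 7 with listed starts counted; for distal density they numbered 6, and 4 to 7 over the settings tried. At 500 bp Kcnq had 40.0%, below the 43.2% of all genes, and with 50% reciprocal overlap Kcnb to Kcnd had 44.4%, below 45.4%; Kcnh stayed above all genes in all settings tried. The 32 channel genes with a no-antibody peak were 21 with −log10 q of at least 5. The 27 genes of the other channel families with a gene-end peak were 17 with the start end alone, which leaves out genes without a listed start. A start was listed for 20 of 26 calcium, 10 of 14 sodium and 2 of 4 HCN channel genes. The causes were not tested. The weakest gene-end peak, that of Kcnj2, rested on 4 tags in replicate 2, and the effect of depth was not tested. Mean distal density was higher in Kcnh than in Kcnq without replicate 1, in a window of 100 kb, with −log10 q of at least 5 (1.39 and 1.37) and at 500 bp (2.84 and 2.79).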
